A study of Homo sapiens with 24 samples.

Results

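The transcripts of 10 genes tied to stemness were examined across 8 conditions, labelled as 3 triple-negative breast cancer (TNBC) cell lines. The genes were SOX2, POU5F1, KLF4, MYC, MYCN, SOX9, BMI1, LIN28B, HMGA1 and HMGA2. They were selected by gene symbol from all 4 tables, as a set named with earlier results of these data known. They are 10 of 60651 rows of the table for KIF20A sg1 and 10 of 23792 rows of that for KIF20A overexpression, and 9 of them were among the 19283 rows for Hs578T and 9 among the 18248 rows for HCC70. MYCN had no row in the Hs578T table and HMGA2 had none in the HCC70 table.

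RNA-Seq of poly-A RNA gave 24 libraries, 3 for each condition. From unmodified Hs578T and HCC70 cells, breast cancer stem-like cells (BCSCs) were sorted by FACS as cells with the CD24-CD44+ phenotype and aldehyde dehydrogenase (ALDH) activity, and non-BCSCs as the sorted counterpart. MDA-MB-231 cells carried, by lentivirus, either control sgRNA (sgCtrl) or KIF20A sgRNA #1 (sg1, labelled knockdown). The libraries of a separate experiment are labelled MDA-MB-231 with empty vector (EV) or with KIF20A overexpression (OE), also by lentivirus. The markers of those labelled OE, given below, differed from those of the other MDA-MB-231 libraries. KIF20A encodes a mitotic kinesin. Each of the 4 pairs had its own batch number in the labels and its own table, so levels of different tables are set side by side without a test. Recovered depth ran from 24983606 to 33985436 reads in the sorted cells, from 41424338 to 51018667 in the sgRNA experiment and from 15971297 to 22182293 in the overexpression experiment. The labels call the libraries biological triplicates, and p-values here measure the spread between such samples.

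SOX2 and POU5F1 (Oct4) are transcription factors that hold embryonic stem cells in the pluripotent state, and together with KLF4 and MYC they can reset differentiated cells to it. LIN28B is an RNA-binding protein that blocks the maturation of let-7 microRNAs, and let-7 in turn binds the 3′ untranslated regions of messages such as HMGA2 and LIN28B itself, which closes a double-negative loop. HMGA1 and HMGA2 are chromatin proteins that bind the minor groove of AT-rich DNA, SOX9 marks luminal progenitors and duct cells, and BMI1 is a subunit of Polycomb repressive complex 1 (PRC1) that silences the CDKN2A locus. High LIN28B and HMGA2 are features of fetal tissue and of many cancers, and SOX9, BMI1 and MYC have each been linked to stem-like cells of the breast.

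Of the 10 messages, 3 carry a match to the let-7 seed, and these sequences are shown because LIN28B and the HMGA genes are the members of the let-7 circuit whose levels are described below. The mature let-7 miRNAs were not measured here. They are taken from RefSeq on GRCh38, and capitals mark the seed at bases 2 to 8, which is the same in all 9 family members found.
hsa-let-7a-5p: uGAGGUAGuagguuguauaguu
hsa-let-7b-5p: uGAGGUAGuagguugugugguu
hsa-let-7g-5p: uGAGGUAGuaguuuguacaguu
hsa-miR-98-5p: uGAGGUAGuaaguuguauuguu

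The seed pairs with the letters CTACCTC in a message. In the 3′ untranslated regions of the canonical GENCODE 44 transcripts, searched on the sense strand, LIN28B had 4 such matches in 4549 bases, HMGA2 had 4 in 2999 bases and HMGA1 had 1 in 1347 bases, while SOX2, POU5F1, KLF4, MYC, MYCN, SOX9 and BMI1 had 0. Of 19559 such regions of all genes, 9.8% held at least 1 match. Among regions of similar length, the share was 23.6% for the length of LIN28B, 14.8% for HMGA2 and 8.8% for HMGA1. The target strand is written 5′ to 3′ on GRCh38 (all on the plus strand) with the match in capitals.
LIN28B at chr6:105078813-105078834: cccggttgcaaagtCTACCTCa
LIN28B at chr6:105081240-105081261: actgatgatagtaaCTACCTCt
LIN28B at chr6:105081422-105081443: tttacagcaaaaggCTACCTCa
LIN28B at chr6:105082861-105082882: aatgatggtgttgaCTACCTCt
HMGA2 at chr12:65963299-65963320: ccaacgttcgatttCTACCTCa
HMGA2 at chr12:65964534-65964555: cccactactcaataCTACCTCt
HMGA2 at chr12:65964946-65964967: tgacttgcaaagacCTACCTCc
HMGA2 at chr12:65965799-65965820: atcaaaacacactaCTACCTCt
HMGA1 at chr6:34245830-34245851: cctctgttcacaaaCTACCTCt

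Before the results, the libraries labelled KIF20A OE have to be set apart, because their markers differed from those of the other MDA-MB-231 libraries. CD44 was at 642 ± 135 CPM (reads scaled to a fixed library total; mean ± SD, n = 3) in EV and 0.557 ± 0.591 in the libraries labelled OE, and 10 of 10 markers of mesenchymal TNBC lines fell, their summed level going from 9195 to 11010 in EV to 629 to 1126 CPM. Of 7 tested epithelial markers, 6 fell and CDH1 rose (0.299 to 3.52 CPM). The sum of all 10 epithelial markers listed was 1885 to 2196 CPM in EV and 372 to 477 in the libraries labelled OE. Of 10 genes known from HEK293 cells, whose derivative packaged the lentivirus in the study's methods, 9 were tested. All 9 were called higher, beside 46.2% of all 15265 genes. In EV, 9 of the 10 had at most 3 reads in every library. Those tested among them met the minimum mean of 1 CPM only through the libraries labelled OE. Their direction was fixed by that filter, so the count of calls adds nothing to the levels. The sum of all 10 was 0.145 to 1.35 CPM in EV and 1830 to 2440 in the libraries labelled OE. IRS4, PAX2, NEFL, INA, UCHL1 and CDKN2A were at 0 reads in EV. In the other 6 MDA-MB-231 libraries, with sgCtrl or sg1, that sum lay between 0.14 and 0.31 CPM and CD44 at 1403 ± 137 and 1390 ± 160 CPM. The list was not silent in every other line. In HCC70, 4 of its 10 genes were listed and 2 reached a mean of at least 1 TPM. The sum of the 4 was 160 to 244 TPM in non-BCSCs and 164 to 190 in BCSCs, and so rests on few genes of the list. In Hs578T, with 6 listed, the sum was at most 1.41 TPM in non-BCSCs and 1.49 in BCSCs. KIF20A itself was at 101, 143 and 124 CPM in EV and 1348, 269 and 896 in the libraries labelled OE. All 3 libraries of the group stood apart in this way, so no comparison with EV could be made without them, and the part of these markers in the differences from EV was not tested.

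Levels between members are compared per transcript length, as TPM (reads per transcript length, scaled to a fixed total). By the values listed for each gene alone, HMGA1 had the highest level of the set in every condition, from 97.9 TPM in Hs578T non-BCSCs to 4348 in MDA-MB-231 EV. MYC and BMI1 had group means of 81.0 to 151 TPM and 40.4 to 74.0 TPM. In the sorted cells of both lines, TPM implied lengths of 0.63 (MYC) and 1.24 (HMGA1) times the canonical transcript, relative to the median gene. In MDA-MB-231 the canonical length was used, so levels of these 2 genes are not on the same scale there. HMGA2 was at 27.9 to 32.6 TPM in Hs578T and at 33.0 to 65.3 in MDA-MB-231 with sgCtrl, sg1 or EV. SOX9 ran from 18.8 TPM in Hs578T non-BCSCs through 92.7 in HCC70 non-BCSCs and 96.8 with sgCtrl to 216 with EV. Outside the libraries labelled OE, the pluripotency factors were low. SOX2 had group means of at most 0.381 TPM in the sorted cells, 0 reads in all 6 libraries with sgCtrl or sg1 and 1.94 TPM with EV, against 13.6 TPM in the libraries labelled OE. The highest group mean of LIN28B outside the labelled OE was 0.131 TPM, and MYCN had at most 1 read per library where it was listed outside that group. NANOG and LIN28A, which belong to the same circuits, were listed with 0 reads in all 6 libraries of the sgRNA experiment.

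**Figure D1:**
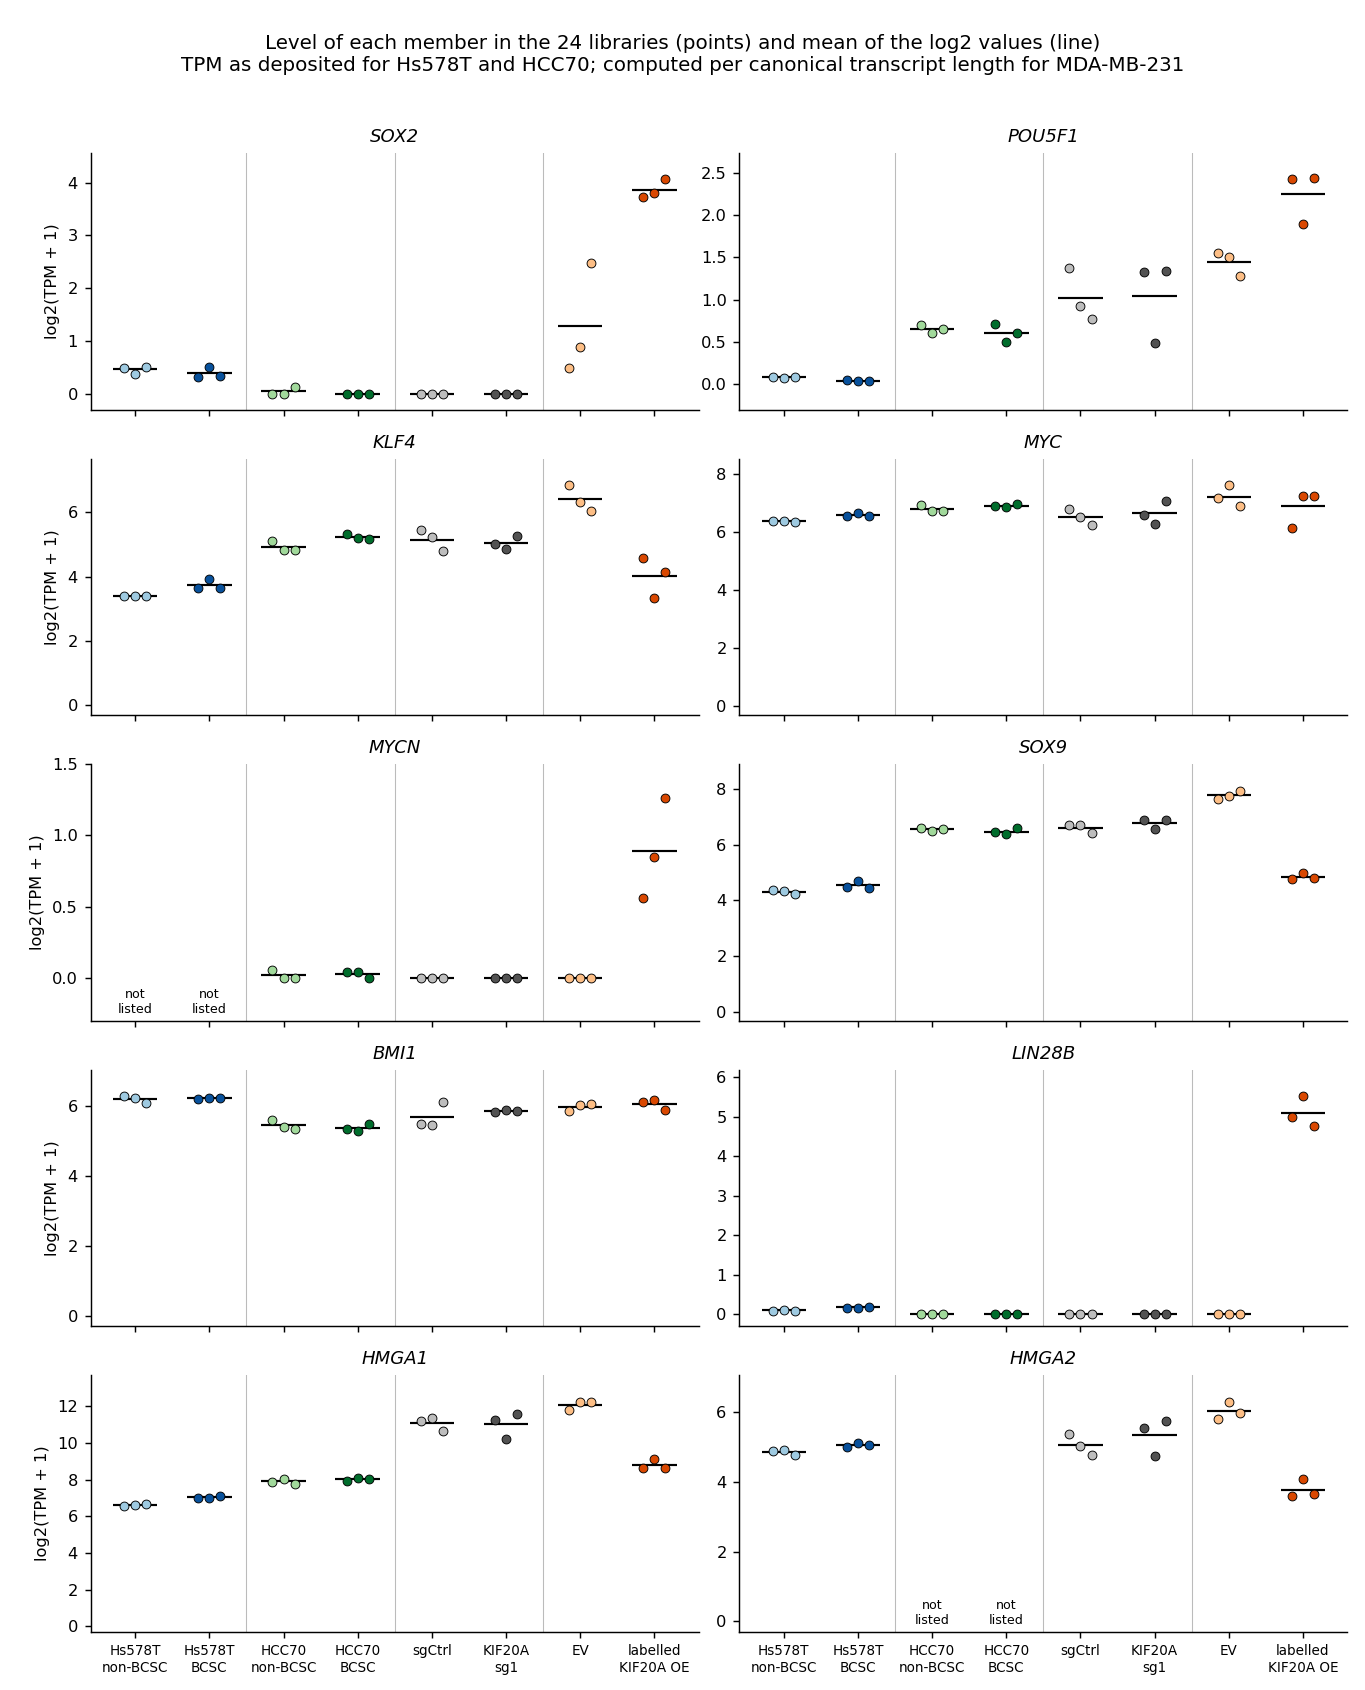
Level of each of the 10 genes in the 24 libraries, as log2(TPM + 1) on the y axis, with the 8 conditions on the x axis, points for libraries and lines for the mean of the log2 values. TPM are as deposited for Hs578T and HCC70 and computed from recovered reads and canonical transcript lengths for MDA-MB-231. LIN28B reaches a mean of 34.2 TPM in the libraries labelled KIF20A OE, while HMGA1, HMGA2, SOX9 and KLF4 are lower there than in EV.

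Reads of some members cannot be assigned without doubt. BMI1 shares 1000 exon bases on the same strand with the readthrough gene COMMD3-BMI1. The latter was listed at 87.7 TPM beside 72.9 for BMI1 in Hs578T non-BCSCs, and at 0 in all libraries with sgCtrl or sg1. In those non-BCSCs it had 3643, 3956 and 3860 reads, and BMI1 had 3097, 3314 and 3229. The summed level was 161 TPM in each fraction of Hs578T, beside 97.9 and 130 TPM for HMGA1. Whether the same reads were counted for both genes was not tested. If they were, the sum holds them more than once, so no ranking is drawn from it. HMGA1 has 8 and POU5F1 has 7 copies or pseudogenes named after it, and KLF4 and BMI1 have 1 each. HMGA2, KLF4, LIN28B, MYC, MYCN and POU5F1 overlap exons of a gene on the opposite strand by 98 to 384 bases, and the strand setting of the counting was not given in the sources used here. TPM of POU5F1 in the sorted cells implied a length 10.8 times that of its canonical transcript relative to the median gene in Hs578T. The 101 listed neighbours within 1 Mb had a median of 7.1 times, so TPM of POU5F1 there is not on the scale of the other genes and its reads are given instead. In bulk RNA, fewer cells that express a gene and less RNA per cell cannot be told apart.

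The comparison of BCSCs with non-BCSCs asked whether these genes differ between the sorted fractions. In Hs578T, a mesenchymal TNBC line, HMGA1 and MYC rose in BCSCs, HMGA2, KLF4 and SOX9 had higher values without passing the test, and BMI1 differed by less than its replicates. Of the 6 members with a mean of at least 1 TPM, 2 were called higher and 0 lower (limma, adjusted p under 0.05), where 2.9% of all 13324 genes tested were called higher, 4.26% lower and 7.15% in either direction. In 5 of the 6, every BCSC library lay above every non-BCSC library, against 12% of all genes (17% for the opposite order and 29% for either), and 22.5% of all genes had an unadjusted p under 0.05. The median log2 fold change of the 6 was 0.24 and that of all genes tested -0.013. The split of all calls was 386 higher and 567 lower, or 620 and 573 when libraries were scaled by their median of ratios, under which HMGA2 was called as well.

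HMGA1 (chr6:34236873-34246231, plus strand), which encodes an architectural chromatin factor of stem and proliferating cells, was at 93.9, 97.1 and 103 TPM in non-BCSCs and 128, 127 and 135 in BCSCs of Hs578T. The groups were well apart, and each BCSC library exceeded the highest non-BCSC library by more than the range within either group. The log2 fold change was 0.40 ± 0.05 (SE), adjusted p = 0.004. In HCC70, HMGA1 was at 232, 263 and 220 TPM in non-BCSCs and 243, 267 and 264 in BCSCs, and the groups overlapped (0.12 ± 0.08, adjusted p = 0.396).

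MYC (chr8:127735434-127742951, plus strand), the E-box-binding driver of growth genes, was at 81.0, 82.8 and 79.1 TPM in Hs578T non-BCSCs and 92.7, 99.9 and 93.3 in BCSCs. All BCSC libraries were above all non-BCSC libraries, by 1.18-fold in the means. The log2 fold change was 0.23 ± 0.05, adjusted p = 0.0257, a call that ended without BCSC replicate 1 or without any 1 of the non-BCSC libraries (adjusted p = 0.0596 to 0.0954). In HCC70 the values were 119, 103 and 105 against 118, 115 and 123 TPM, which overlapped (0.12 ± 0.07, adjusted p = 0.324).

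KLF4 (chr9:107484852-107490482, minus strand), a zinc-finger factor of epithelial differentiation and reprogramming, was the member that separated the fractions in both lines. In Hs578T it was at 9.68, 9.5 and 9.62 TPM in non-BCSCs and 11.5, 14.2 and 11.6 in BCSCs, and in HCC70 at 33.3, 27.8 and 27.4 against 39.4, 36.2 and 35.0. The groups did not overlap in either line, although in HCC70 non-BCSC replicate 1 came close to the lowest BCSC library. The log2 fold changes were 0.33 ± 0.08 (adjusted p = 0.0542) and 0.32 ± 0.09 (adjusted p = 0.0881), and their difference was 0.02 ± 0.13.

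HMGA2 (chr12:65824460-65966291, plus strand), the fetal counterpart of HMGA1, was at 28.4, 28.9 and 26.3 TPM in Hs578T non-BCSCs and 31.2, 33.9 and 32.7 in BCSCs. The groups did not overlap, and the log2 fold change of 0.22 ± 0.05 missed the threshold (adjusted p = 0.0556). With edgeR and DESeq2 on recovered reads it passed, at 0.25 (adjusted p = 0.00936 and 0.00174).

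SOX9 (chr17:72121020-72126416, plus strand) was at 19.7, 19.1 and 17.7 TPM in Hs578T non-BCSCs and 21.4, 25.2 and 20.8 in BCSCs, again without overlap (0.24 ± 0.08, adjusted p = 0.116). In HCC70, where its level was higher in both fractions, it was at 96, 89.0 and 93.0 TPM in non-BCSCs and 86.2, 81.2 and 94.9 in BCSCs, which overlapped (log2 fold change -0.08 ± 0.07, adjusted p = 0.488). BMI1 (chr10:22321099-22331484, plus strand) was at 77.5, 73.8 and 67.4 against 72.8, 74.0 and 75.2 TPM in Hs578T and at 47.5, 41.2 and 40.1 against 39.4, 38 and 43.9 in HCC70. In neither line did BMI1 separate the fractions, and the 95% intervals of its log2 fold change were -0.11 to 0.16 and -0.28 to 0.11.

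**Figure D2:**
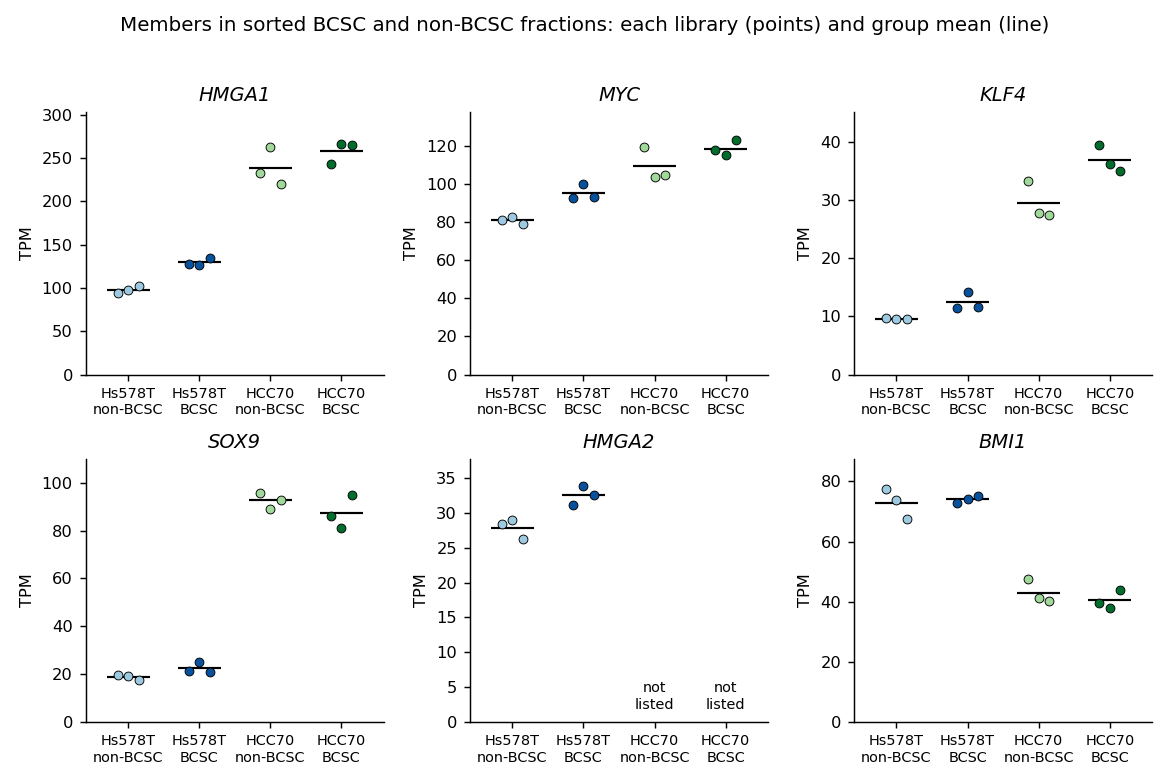
TPM of 6 members in the sorted fractions of Hs578T and HCC70, with a point for each of 3 libraries and a line for the mean of each group, on axes that start at 0. HMGA1, MYC, KLF4, SOX9 and HMGA2 sit higher in Hs578T BCSCs than in non-BCSCs without overlap, while in HCC70 only KLF4 does.

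In HCC70, a basal-like epithelial line, 0 of 5 tested members were called by limma, where 2.28% of 13218 genes were called higher, 0.552% lower and 2.83% in either direction. At an unadjusted p under 0.05, which 3134 genes (23.7%) reached, 1 of the 5 passed, KLF4, and edgeR called 0 of the 5. KLF4 was also the only one of the 5 whose groups did not overlap, a pattern seen in 20.9% of all genes for higher, 10.1% for lower and 30.9% for either. DESeq2 on recovered reads called KLF4 (0.30, adjusted p = 0.0215). In a model of all 12 sorted libraries, the BCSC effect in Hs578T minus that in HCC70 was 0.29 ± 0.09 for HMGA1 (adjusted p = 0.0825) and 0.33 ± 0.11 for SOX9 (adjusted p = 0.0856). It was 0.11 ± 0.08 for MYC (adjusted p = 0.396) and 0.11 ± 0.11 for BMI1 (adjusted p = 0.546). None of the 5 members passed, where 8.11% of 13701 genes did (limma), and 2 of the 5 did at an unadjusted p under 0.05, as did 3737 of all genes, so a difference between the lines was not shown for any member. Cell line and batch cannot be told apart in the levels.

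The low members were read as counts. LIN28B (chr6:104936616-105083332, plus strand) had 4, 6 and 5 reads in Hs578T non-BCSCs and 9, 9 and 11 in BCSCs, groups that did not overlap, at a mean of 0.131 TPM in BCSCs. POU5F1 (chr6:31164337-31180731, minus strand) had 11, 10 and 14 reads in non-BCSCs and 7, 5 and 5 in BCSCs, the opposite order, again without overlap. The exact permutation test gave p = 0.1 for either, two-sided, which is the smallest it can give with 3 against 3 samples. At these counts a difference of a few reads decides the order.

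SOX2 (chr3:181711925-181714436, plus strand) had 12, 10 and 15 against 8, 14 and 9 reads in Hs578T, which overlapped (exact permutation p = 0.3), and 3 reads in all 6 libraries of HCC70. In HCC70, POU5F1 had 96, 89 and 112 reads in non-BCSCs and 131, 85 and 88 in BCSCs, LIN28B had 1 read in all, and MYCN (chr2:15940550-15947007, plus strand) had 1 read in each of 3 libraries. For LIN28B and MYCN in HCC70, a count of 0 in a library allows up to 3 reads, so no difference was detectable at this depth.

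The genes used for sorting were also read in both lines. ALDH1A3, an enzyme of the ALDH activity used for sorting, was at 289 ± 8.3 TPM in non-BCSCs and 706 in BCSCs of Hs578T (log2 fold change 1.29, adjusted p = 8.39e-06), and at 87.3 and 98.4 in HCC70 (0.17, adjusted p = 0.179). CD44 and CD24 were not called in either line (log2 fold change of CD24 -0.31, adjusted p = 0.0543 in HCC70). KIF20A rose in both, by 0.45 ± 0.06 in Hs578T and 0.80 ± 0.05 in HCC70 (adjusted p = 0.00718 and 0.00157).

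Depletion of KIF20A with sg1 asked whether the stemness genes depend on it. KIF20A itself was at 153, 173 and 156 CPM with sgCtrl and 122, 145 and 91.1 with sg1. All sg1 libraries were lower, by 0.743-fold in the means, and the log2 fold change of -0.45 ± 0.16 did not pass (adjusted p = 0.69). None of the 6 tested members passed, and 0% of 12852 genes did (limma). At an unadjusted p under 0.05, 899 genes (7%) passed, and on recovered reads edgeR called 0 and DESeq2 16. KIF20A RNA did not pass either, but RNA does not measure the protein. The paper reports depletion of KIF20A protein by immunoblot in MDA-MB-231 cells with KIF20A sgRNAs. Protein cannot be read from these libraries. With 0% of genes passing, an absence of change in the members is not shown. Without sgCtrl replicate 3, limma called 144 genes, and without sg1 replicate 2 it called 5. In 0 of the 6 members were the groups apart, against 13% of all genes (5.73% higher and 7.3% lower).

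HMGA1 was the most variable, at 1792, 2064 and 1253 CPM with sgCtrl and 1857, 906 and 2258 with sg1. The lowest and the highest of the 6 libraries both carried sg1, and the log2 fold change was -0.10 with a 95% interval of -0.77 to 0.58. HMGA2 was at 65.5, 53.1 and 43.9 CPM with sgCtrl and 74.2, 41.7 and 84.7 with sg1, also with both extremes in sg1 (0.26, interval -0.26 to 0.78). MYC followed the same order at the ends, with 161, 135 and 111 against 139, 110 and 192 CPM (0.09, interval -0.34 to 0.52). The sg1 replicate 2 library was thus the lowest of the 6 for HMGA1, HMGA2 and MYC alike, and sg1 replicate 3 the highest.

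KLF4 was at 49.1, 43.4 and 31.7 CPM with sgCtrl and 36.4, 32.4 and 42.4 with sg1 (log2 fold change -0.14, adjusted p = 0.861). SOX9 was at 159, 163 and 134 against 180, 142 and 176 CPM (0.12, adjusted p = 0.84), and BMI1 at 60.5, 61.7 and 97.6 against 79.1, 81.1 and 78.7 (0.15, adjusted p = 0.844). In sgCtrl replicate 3, BMI1 was the highest of the 6 libraries and SOX9 and KLF4 were the lowest. SOX2, MYCN and LIN28B had 0 reads in all 6 libraries, and POU5F1 had 40, 25 and 20 reads with sgCtrl and 40, 11 and 35 with sg1. With sg1, the interval of the log2 fold change was -0.52 to 0.24 for KLF4 and -0.17 to 0.42 for SOX9. Whether the differences between the sorted fractions of Hs578T depend on KIF20A was not tested. The intervals with sg1 cannot decide it, because they come from a different cell line and a different unit.

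**Figure D3:**
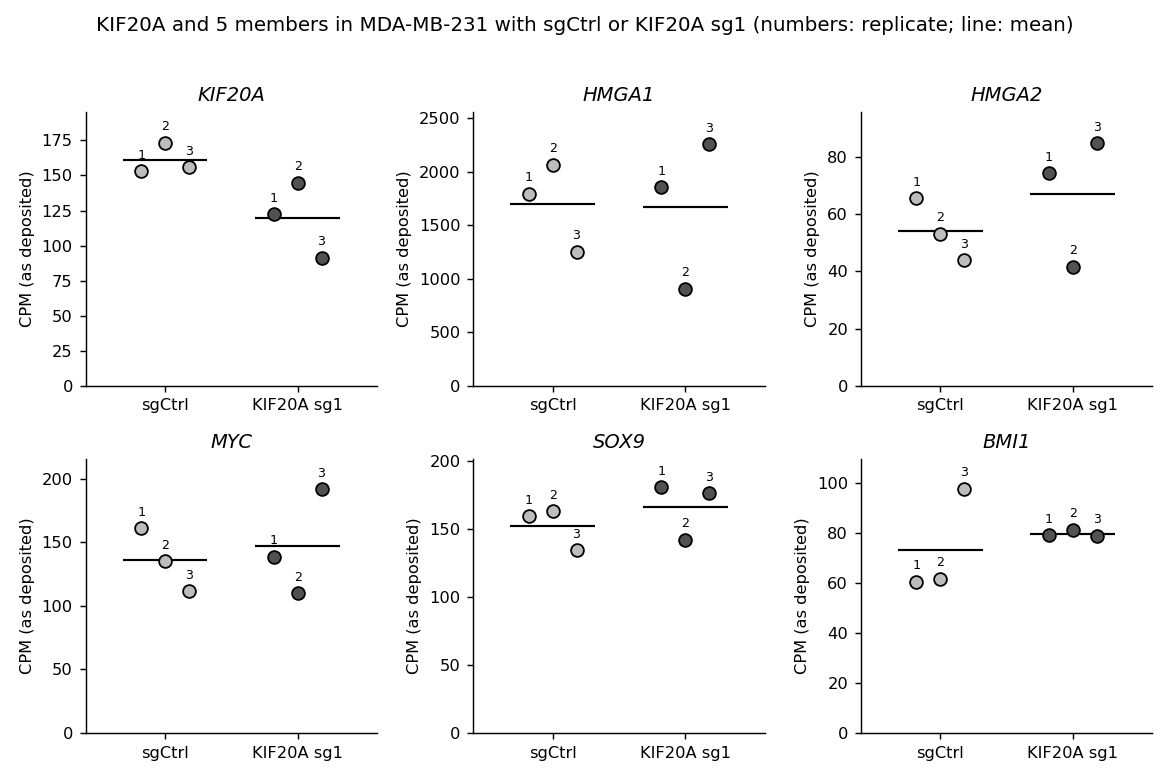
CPM as deposited of KIF20A and 5 members in MDA-MB-231 cells with sgCtrl or KIF20A sg1, on axes that start at 0, with the replicate number at each point and a line for the mean. KIF20A is lower in all 3 sg1 libraries, whereas HMGA1, HMGA2 and MYC have both their lowest and highest library among sg1.

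The comparison of the libraries labelled KIF20A OE with EV gave the largest differences of the set, in opposite directions. LIN28B, SOX2 and POU5F1 rose, HMGA1, SOX9, KLF4 and HMGA2 fell, and MYC and BMI1 did not pass. Of 9 members tested, 3 were called higher and 4 lower (limma), in a comparison where 46.2% of 15265 genes were called higher, 23.4% lower and 69.7% in either direction (72.2% at an unadjusted p under 0.05), so calls alone say little about the set. LIN28B, with 0 reads in EV, entered the test only through the libraries labelled OE. The groups did not overlap for the same 7 members, 3 higher and 4 lower, against 48.9% of all genes higher, 25.2% lower and 74.1% in either direction. All genes were shifted upward by a median of 0.37 on the log2 scale. Scaling each library by its median of ratios instead reduced the shift to 0.04, and the split of all calls changed from 7055 higher and 3579 lower to 5135 and 5013. Log2 fold changes below are on log2(CPM + 1), with the rescaled value where it differs in call or direction.

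LIN28B had 0 reads in the EV libraries and was at 68.3, 101 and 59.3 CPM in the libraries labelled OE (1091, 2241 and 1107 reads). Even the lowest of these is far above the 3 reads that a count of 0 allows. Set against that floor per library, it was at least 492.5-fold higher. Limma gave an adjusted p of 2.07e-07, but LIN28B met the minimum mean only through the libraries labelled OE. Its direction was thus fixed by the filter, and the level is the result. MYCN, the MYC paralog of neural tissue, also had 0 reads in EV. It had 8, 19 and 28 reads in OE, at least 6.153-fold higher, but was under the minimum mean of 1 CPM. With a minimum of 0.1 it passed (limma, adjusted p = 0.00236), again only through the libraries labelled OE. In these libraries the per-length level of LIN28B was 34.2 ± 9.8 TPM, above that of KLF4 (16.2) and HMGA2 (12.9).

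SOX2 was at 0.381, 0.822 and 4.41 CPM in EV and 12.5, 13.3 and 16.3 in the libraries labelled OE. The groups did not overlap, although EV replicate 3 stood above the other EV libraries (75 reads against 8 and 17). The log2 fold change was 2.65 ± 0.46, adjusted p = 0.00107. POU5F1 rose from 1.05, 1.01 and 0.764 to 2.50, 1.58 and 2.57 CPM (0.72 ± 0.20, adjusted p = 0.0126), a call lost after rescaling (0.50, adjusted p = 0.0596) and with edgeR and DESeq2 (adjusted p = 0.07 and 0.145).

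HMGA1 fell from 2572, 3540 and 3524 CPM to 304, 433 and 312. Every library labelled OE lay far below every EV library, with a ratio of the means of 0.109, and the log2 fold change was -3.20 ± 0.19 (adjusted p = 2.37e-06). HMGA2 fell from 87.0, 125 and 98.1 to 18.3, 27.1 and 19.8 CPM (-2.20 ± 0.19, adjusted p = 2.22e-05). LIN28B and the HMGA genes, which share let-7 seed matches, thus differed from EV in opposite directions.

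SOX9 fell from 295, 323 and 363 CPM to 41.8, 49.7 and 43.7 (-2.83 ± 0.13, adjusted p = 5.08e-07), with narrow groups on both sides. KLF4 fell from 129, 90.8 and 72.5 to 27.4, 10.9 and 20.1 CPM (-2.31 ± 0.33, adjusted p = 0.000338). For HMGA1, HMGA2, SOX9 and KLF4, rescaled or with 1 library left out, the direction and the call were kept.

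MYC was at 202, 281 and 166 CPM in EV and 106, 227 and 231 in the libraries labelled OE. The groups overlapped, with the lowest value in OE replicate 1, and the log2 fold change of -0.25 had an interval of -0.98 to 0.48 (adjusted p = 0.495). Without that library it was 0.12. BMI1 was at 77.1, 89.2 and 88.8 against 98.7, 103 and 85.1 CPM. Its log2 fold change was 0.17 (adjusted p = 0.26) and turned to -0.20 after rescaling (adjusted p = 0.161), so no direction can be given.

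**Figure D4:**
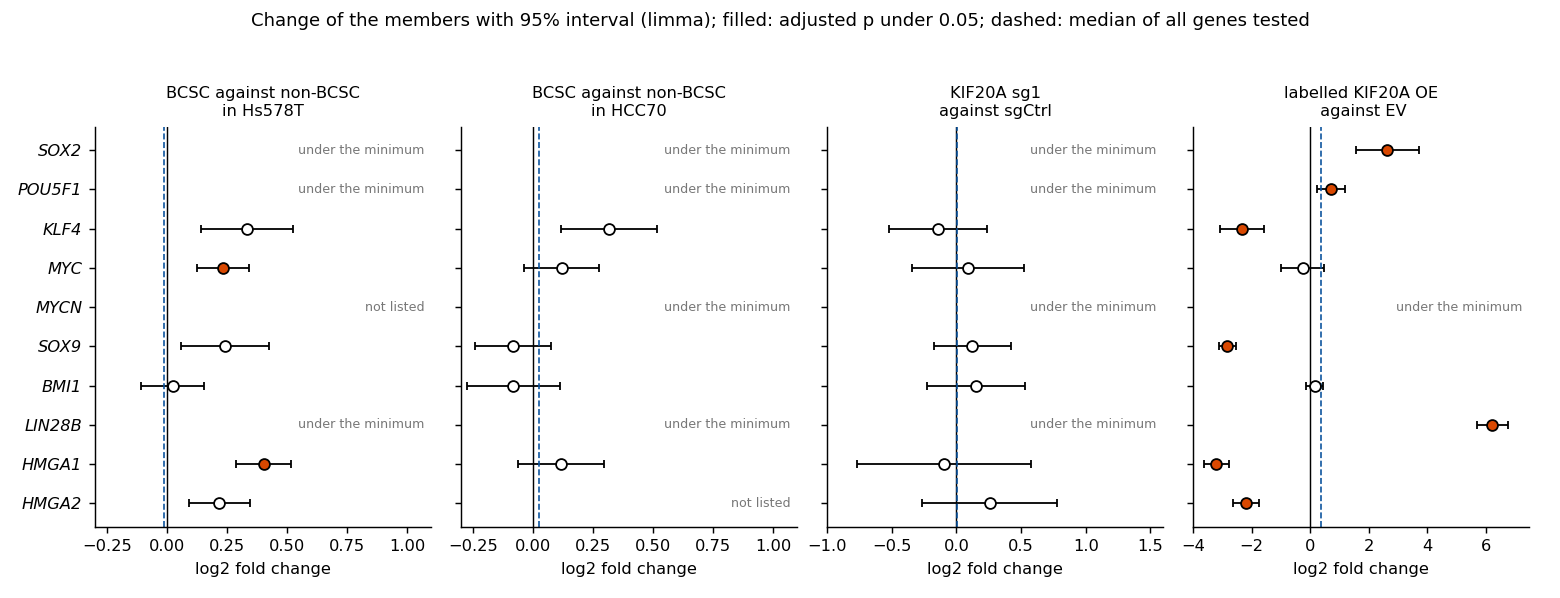
Log2 fold changes of the members in the 4 comparisons with 95% intervals from limma. Filled points passed an adjusted p of 0.05, open points did not, and the dashed line is the median of all genes tested in that comparison. HMGA1 and MYC are filled in Hs578T, 0 members in HCC70 and with sg1, and 7 with the label KIF20A OE. Of these 7, LIN28B met the minimum mean only through the libraries labelled OE.

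Genes around the members were counted by list, in all 4 comparisons. For the libraries labelled OE, the counts stand beside 46.2% of all genes called higher and 23.4% lower, or 5135 and 5013 of 15265 after rescaling, and nothing particular to a list is read from them. Genes at or near 0 reads in EV met the minimum mean only through the libraries labelled OE, so their direction was fixed by that filter. Of 20 genes of the pluripotency network, 5, 3, 3 and 8 were tested in Hs578T, HCC70, sg1 and the labelled OE. In Hs578T 0 were called, and in HCC70 the de novo DNA methyltransferase DNMT3B rose (6.24 to 8.55 TPM, log2 fold change 0.40, adjusted p = 0.032). In the libraries labelled OE, 6 rose and 2 fell, with a list median of 2.03, also after rescaling (6 and 2). TBX3 and TRIM71, the latter an E3 ligase and let-7 target, had 0 reads in EV and were at least 369.5 and 150-fold higher. KLF2 fell by 2.50 and KLF5 by 1.47 on the log2 scale.

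Of 14 let-7 targets, E2F5 rose in Hs578T BCSCs (24.4 to 30.9 TPM, 0.33, adjusted p = 0.0157) as 1 of 10 tested, and 0 of 6 were called in HCC70. In the libraries labelled OE, 10 of 13 rose and 2 fell (7 and 2 after rescaling), and the list median was 1.59. IGF2BP1, an mRNA-binding oncofetal protein, was at 4, 0 and 0 reads in EV and at 329 ± 55 CPM there (adjusted p = 3.83e-08). IGDCC3 had 0, 0 and 2 reads in EV and 165, 408 and 102 in the libraries labelled OE. The IGF2BP1 relatives IGF2BP2 and IGF2BP3 fell by 0.65 and 0.75, in the direction of HMGA1 and HMGA2. The 3′ untranslated region of IGF2BP1 holds 4 let-7 seed matches.

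Of 12 genes of let-7 processing, AGO2, the slicer Argonaute, rose in Hs578T BCSCs (43.3 to 50.3 TPM, 0.21, adjusted p = 0.027) as 1 of 11. In HCC70, 0 of 11 were called. With the label OE, 7 of 11 rose and 3 fell, and after rescaling 4 rose and 3 fell. The list median was 0.37, as for all genes, and 0.004 after rescaling. TARBP2, DROSHA and DGCR8 had the largest rises (0.92, 0.80 and 0.75) and MIRLET7BHG, the host transcript of let-7a-3 and let-7b, TUT7 and AGO2 fell by 1.08, 0.86 and 0.58.

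Of 18 MYC partners and turnover genes, AURKA, a mitotic kinase that also stabilises MYC proteins, rose in BCSCs of both lines, from 97.2 to 129 TPM in Hs578T (0.41, adjusted p = 0.00332) and from 36.4 to 62.7 in HCC70 (0.77, adjusted p = 0.00178). It was the only one called, of 16 and 17 tested. With the label OE, 8 of 18 rose and 4 fell (5 and 5 after rescaling), MYCL, MLXIPL and MXD4 with the largest rises (2.67, 2.41 and 1.07) and MXD1, MLXIP and ZBTB17 with the largest falls (by 0.85, 0.52 and 0.46).

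Of 21 MYC target genes, all were tested in each comparison. In Hs578T BCSCs, ODC1, the first enzyme of polyamine synthesis, rose (175 to 240 TPM, 0.46, adjusted p = 0.00336), LDHA, lactate dehydrogenase, fell (2290 to 1712, by 0.42, adjusted p = 0.00322), and 19 were not called. In HCC70, 0 were. With the label OE, 17 rose and 1 fell (12 and 1 after rescaling), beside a MYC level that did not pass the test. PPAT, POLR1B and NME1 had the largest rises (1.82, 1.49 and 1.30), and LDHA fell by 0.69.

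Of 22 PRC1 and INK4 genes, 0 of 21 and 0 of 22 were called in the sorted fractions. With the label OE, 13 rose and 4 fell (12 and 5 after rescaling), while BMI1 was not called. CDKN2A, the p16 and ARF locus, had 0 reads in EV and was at least 2080-fold higher, and is also on the list of genes known from HEK293 cells. CDKN2B had 0 reads in EV as well and was at least 87.72-fold higher. Whether PRC1 has a part in either difference was not tested. BCOR rose by 3.41, and PHC2, CBX7 and PCGF2 fell by 1.52, 0.76 and 0.73.

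Of 17 other SOX genes, 0 of 5 and 0 of 4 were called in the sorted fractions, and with the label OE 6 of 10 rose and 1 fell (5 and 2 after rescaling). SOX8 had 0 reads in EV and was at least 69.58-fold higher, SOX18 and SOX7 rose by 4.03 and 2.57, and SOX13 fell by 1.18. Of 16 other KLF genes, KLF9 fell in Hs578T BCSCs (by 0.32, adjusted p = 0.0323) as 1 of 12, and 0 of 11 were called in HCC70. With the label OE, KLF15 and KLF9 rose by 3.04 and 2.44 and 4 of 12 fell (2 and 7 after rescaling), of which KLF2, KLF6 and KLF5 most (by 2.50, 2.13 and 1.47). With sg1, 0 genes of any list were called.

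**Figure D5:**
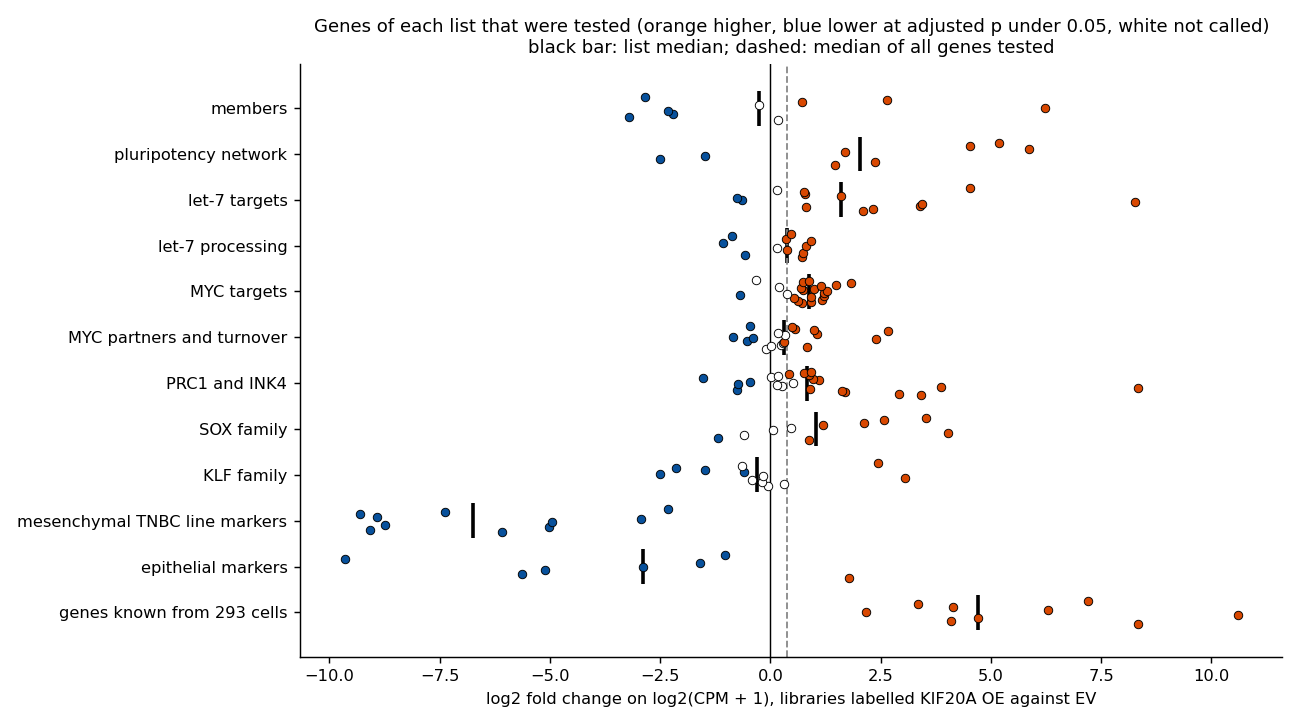
Log2 fold changes in the libraries labelled KIF20A OE against EV, on log2(CPM + 1), for each tested gene of the members and of 11 lists. Orange points were called higher and blue points lower (adjusted p under 0.05), white points were not called, black bars are list medians and the dashed line is the median of all genes tested, 0.37. The 10 mesenchymal markers all lie below 0 and the 9 genes known from HEK293 cells all above it. Most of the latter met the minimum mean only through the libraries labelled OE, so their side was fixed by that filter.

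Genes with the pattern most like a member over the 8 group means were sought among 13563 genes listed in all tables. For LIN28B these were PEG3, COL26A1 and CHRD, each with Pearson's r = 0.9999 over 8 conditions, which rests on the group labelled OE as the high point. For MYC they were BAIAP3, BEND3 and MYRF (r = 0.9923, 0.9885 and 0.9877). The 8 points are deposited values from 4 tables that were normalised apart. They are TPM in the sorted cells and CPM, or the signal named CPM, in MDA-MB-231, so r mixes these units. HMGA2 was not in all 4 tables.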

How the data were processed

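Poly-A RNA of 24 libraries was sequenced, 3 per condition. The submitters' processing notes name HISAT2 2.0.5, featureCounts 1.5.0-p3 and GRCh38. For Hs578T and HCC70 the authors deposited TPM in tables named counts, with column totals of 1000000. The deposited table with sgCtrl and sg1, named CPM by the authors, holds a signal, reads divided by 1 factor per library (column totals 977394 to 1028621). The deposited table with EV and OE holds CPM of the authors. Older symbols were updated from gene tables. Values were whole multiples of a unit for 100% of genes, to rounding, so reads were recovered, and 342 genes of Hs578T and 393 of HCC70 were multiplied by a divisor seen in the other table. Tested on simulated data, recovery returned 100% of values, of TPM up to a common divisor.

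Members and lists were chosen with earlier results of these data known. Genes with a mean of at least 1 were tested on log2(value + 1) by limma 3.58.1 with a trend (R 4.3.3), two-sided, and p-values were adjusted by Benjamini-Hochberg over all genes of a comparison. Fits were tested on simulated data with 200 changed genes, of which 194, 195, 199 and 199 were called in Hs578T, HCC70, sg1 and OE. Of the calls, 6.28, 7.58, 4.78 and 9.13% were false. Every simulation used the same spread between replicates, not that of its libraries, and changed only genes with enough reads, by a fixed factor. The recovered shares therefore do not give the power of the tests on these libraries, in particular with sg1. Alternatives were a pseudocount of 0.1, minimums of 0, 0.1 and 10, median-of-ratios scaling, 2 count models fitted to recovered reads (edgeR 4.0.16, DESeq2 1.42.0), a replicate block, each library left out, and sums with overlapping genes. Named genes are all members, KIF20A, ALDH1A3, CD44 and CD24, the 3 called genes of each list with the largest change in each direction, and the 3 genes most like LIN28B, HMGA2 and MYC in pattern. Of the genes this rule names, 1 is not reported here. Overlaps and 3′ untranslated regions were read from GENCODE 44 (GRCh38); the authors may have counted on another annotation. Python 3.11.15, numpy 2.4.6, pandas 2.3.3, scipy 1.17.1 and matplotlib 3.10.9 were used. A floor of 3 reads covers counting error only, and 0 sample columns were unused.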

Additional observations from a re-analysis of the deposited data

How the results depend on the processing

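Over 451 alternative values of members, 415 kept direction and side of the threshold, 8 lost the call, 16 gained it and 12 turned in sign, none of them called. KLF4 in Hs578T passed with edgeR and DESeq2 (0.39 with either), with a minimum of 10 (0.33, adjusted p = 0.0351) and without BCSC replicate 2 (0.24, adjusted p = 0.0458), KLF4 in HCC70 without non-BCSC replicate 1 (0.40, adjusted p = 0.0376), and HMGA2 with that minimum and after rescaling (0.22 and 0.24). SOX9 in Hs578T passed with edgeR and DESeq2 (0.28 with either), and its difference between the lines after rescaling (0.38, adjusted p = 0.0473). The difference of HMGA1 between the lines passed without HCC70 non-BCSC replicate 3 (0.34, adjusted p = 0.0461). BMI1 with the label OE turned to -0.18 with DESeq2 and with edgeR and to -0.20 with the median of ratios. The cause was not tested. The leave-one-out log2 fold changes that crossed 0 ran from -0.0304 to 0.0681 for BMI1 in Hs578T, from -0.12 to 0.28 for MYC and from -0.36 to 0.30 for HMGA1 with sg1, from -0.44 to 0.12 for MYC with OE, and from -0.0774 to 0.0671 for the difference of KLF4 between the lines.

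Called genes numbered 1644 in Hs578T with edgeR, against 953. In HCC70 there were 374, but 1190 with DESeq2, 677 with edgeR, 243 with a minimum of 0.1, 178 with no minimum, 233 with the median of ratios and 128 with the replicate block. With sg1, DESeq2 called 16. In Hs578T the median of ratios changed the split from 386 higher and 567 lower to 620 and 573. With 1 library left out, calls ranged from 343 (without non-BCSC replicate 2) to 865 in Hs578T, 32 (without BCSC replicate 1) to 270 in HCC70, 0 to 144 (without sgCtrl replicate 3) with sg1, and 440 (without Hs578T non-BCSC replicate 2) to 1414 for the difference between the lines. The sample titles do not say whether same-numbered libraries were paired. Their deviations correlated at -0.161 to 0.185, which cannot decide it with 3 libraries per group. The replicate block took the call of MYC in Hs578T (0.23, adjusted p = 0.0547) and gave 408 called differences between the lines, against 1111. Depth limits LIN28B, MYCN, SOX2 and POU5F1 outside the libraries labelled OE.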
